A study of Mus musculus with 4 samples.

Results

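The response of wild-type (WT) mouse macrophages to lipopolysaccharide (LPS) was read by setting the array of LPS-treated WT cells against the array of untreated WT cells. These are 2 of the 4 samples of the series. The members described are all genes named by 1-gene probe sets on these arrays (a probe set holds several short probes that jointly measure a transcript). Of 18193 such genes, 11489 passed a floor of 52.9 intensity units on 1 or both WT arrays, and 10378 passed it on both. The floor is the median of all probe sets over the 4 arrays, and lower values were set to it.

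The cells were bone marrow-derived macrophages of C57BL/6 mice, grown from marrow for 5 days with 10% serum and 10% L929 cell supernatant as the source of macrophage colony-stimulating factor. WT_UT is the untreated WT sample, and WT_LPS is the WT sample given 2 ng/ml of LPS (Escherichia coli 0111:B4) for 3 h. DKO_UT and DKO_LPS are the matching samples of cells lacking both Hes1 and Hey1, and serve below only to show how a second pair of arrays read the same genes. The labels give neither the age or number of the mice nor how the knockouts were made. Each group was 1 array, so there is no replicate error, no test and no p-value for any difference, and the number of arrays limits the precision. Genes are termed higher or lower with LPS at a difference of 2-fold or more. In cultured cells, a smaller share of cells of a type and less RNA per cell cannot be told apart.

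LPS is the outer membrane glycolipid of Gram-negative bacteria, and CD14 and TLR4 receive it on macrophages. The adaptors Myd88 and Trif then switch on NF-kB, MAP kinases and interferon regulatory factors, which induce cytokine genes within hours and also their own inhibitors. Macrophages are further known to change shape, adhesion, uptake receptors, secreted proteases and metabolism in this state, and to shut down part of the programme of resting cells.

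With LPS, 386 of the 11489 genes were higher, which is 3.36% of those tested, and 392 were lower, which is 3.41%. Changes upward were the larger ones. The median fold of the higher genes was 2.94 and that of the lower genes 2.32, and 123 genes were at least 4-fold higher while 19 were at least 4-fold lower. At 8-fold or more stood 49 higher genes and 1 lower gene, and at 16-fold or more 22 and 0. Of the higher genes, 56 were under the floor without LPS, and of the lower genes 48 were under it with LPS. Their folds are lower limits, printed as at least N-fold, and such a gene could only differ in that direction. Brightness mattered to the balance of the calls. Of 4569 genes whose mean reached 1000 units, 191 were higher and 73 lower. For 4080 genes with a mean from 200 to 1000 units these counts were 116 and 171. For 2267 genes with a mean from the floor to 200 units they were 79 and 148.

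**Figure D1:**
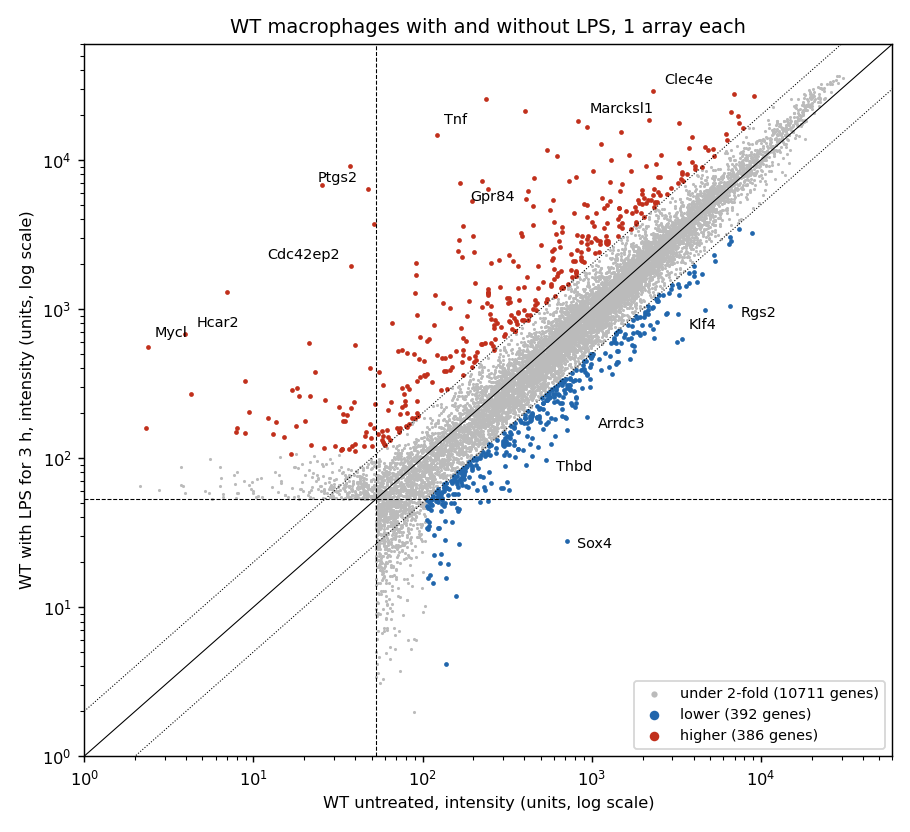
Intensity of each gene above the floor on a WT array, untreated (x axis, units, log scale) against LPS for 3 h (y axis, units, log scale), 1 array each. Red points are the 386 higher genes, blue points the 392 lower genes and grey points those under 2-fold; dashed lines mark the floor of 52.9 units and dotted lines 2-fold. Red points reach far above the upper dotted line, and most blue points stay close to the lower one.

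The treated cells carried the LPS markers. Tnf, the main early macrophage cytokine, went from 122 units untreated to 14788 with LPS, the neutrophil chemokine gene Cxcl2 from 237 to 25500, and Acod1, which makes itaconate, from 405 to 21438. The macrophage genes Adgre1 (13253 and 16225 units), Csf1r (17830 and 23733), Lyz2 (18116 and 26173) and Spi1 (4456 and 7534) were bright on both arrays. So were Cd14 (9103 and 26767) and Cd68 (17508 and 23520). Itgam (2250 and 1840) and Fcgr1 (1962 and 1409) read less with LPS, neither of them by 2-fold. Some markers of other blood and stromal cells were above the floor on a WT array. These were 3 of 11 for neutrophils, 3 of 7 for B cells, 2 of 7 for T and NK cells and 1 of 8 for dendritic cells. For mast cells it was 1 of 7, for fibroblasts 1 of 9 and for erythroid cells 3 of 5. The summed intensity of all markers of a list was 2224 untreated and 1938 with LPS for neutrophils. It was 6293 and 5915 for the B cell list and 267 and 193 for the T and NK cell list. It was 4628 and 4617 for the dendritic cell list, 239 and 197 for the mast cell list, 192 and 254 for the fibroblast list and 117 and 194 for the erythroid list. Single genes made up most of some sums. Untreated, Blnk gave 5766 units of the B cell sum, Bst2 4469 of the dendritic cell sum and Mmp8 1612 of the neutrophil sum. Osteoclasts share the macrophage lineage, and 6 of their 8 markers were above the floor, with summed intensities of 4532 and 3455. The part of such cells in the differences below was not tested. Hey1 read 57.2 units untreated and 17.3 with LPS in WT cells, and 9.17 and 10.2 in DKO cells, while Hes1 was under the floor on both WT arrays.

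Promoter sequence was read to show the element through which NF-kB is best known to act. The windows are those of RefSeq for assembly GRCm38.p6, from 250 bases before each gene's start to 50 after it, given 5′ to 3′ on the gene's strand, with the site in capitals and the first transcribed base counted as 0. Cxcl2 and Cxcl10 were the only genes among the 30 furthest higher, of the 23 that had a window, that held the NF-kB letters, GGGA and TTCC with any 2 bases between them, and are shown in full. In Cxcl2 the capitals are 2 overlapping matches, the first from -97, and in Cxcl10 1 match starts at -159.
Cxcl2, chr5:90903649-90903948, plus strand: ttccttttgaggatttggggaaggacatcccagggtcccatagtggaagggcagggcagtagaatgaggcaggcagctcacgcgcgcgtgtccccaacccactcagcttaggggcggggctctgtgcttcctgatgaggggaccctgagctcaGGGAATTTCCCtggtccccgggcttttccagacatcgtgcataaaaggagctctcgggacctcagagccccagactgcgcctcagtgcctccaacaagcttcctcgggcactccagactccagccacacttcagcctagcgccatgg
Cxcl10, chr5:92348840-92349139, minus strand: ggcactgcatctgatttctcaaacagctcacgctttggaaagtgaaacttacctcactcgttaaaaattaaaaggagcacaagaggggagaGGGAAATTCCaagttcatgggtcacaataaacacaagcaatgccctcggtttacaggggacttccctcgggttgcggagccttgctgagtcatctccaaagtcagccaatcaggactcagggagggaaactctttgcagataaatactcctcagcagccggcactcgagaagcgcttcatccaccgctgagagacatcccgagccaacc

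The same letters stood in other promoters of higher genes, shown here with 15 bases on either side because they belong to chemokines, a cytokine and the pathway's own inhibitor and subunit genes. Cxcl3 and Cxcl1, the neighbours and paralogues of Cxcl2, held the same 11 letters with the first at -73 and -71. In Il6 the match begins at -44, in Nfkbia, where the letters read on the opposite strand, at -29 and in the Nfkb2 window shown here at -225. How far probe sets of the paralogues Cxcl1, Cxcl2 and Cxcl3 read each other's transcripts was not tested.
Cxcl3, chr5:90786013-90786053, plus strand: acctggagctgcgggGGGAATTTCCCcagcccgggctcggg
Cxcl1, chr5:90891159-90891199, plus strand: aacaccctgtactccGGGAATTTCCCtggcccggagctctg
Il6, chr5:30013055-30013094, plus strand: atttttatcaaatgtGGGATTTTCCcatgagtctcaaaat
Nfkbia, chr12:55492652-55492691, minus strand: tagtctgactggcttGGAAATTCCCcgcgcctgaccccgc
Nfkb2, chr19:46305690-46305729, plus strand: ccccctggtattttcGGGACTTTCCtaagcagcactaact

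Counted over both strands, the NF-kB letters were in 1.47% of all 32851 windows, in 1.51% of the 11980 windows of genes above the floor, in 4.42% of the 407 windows of higher genes, in 1.58% of the 442 of lower genes and in 10.0% of the 50 windows of genes at least 8-fold higher, which is 5 windows. TGANTCA, the AP-1 element, was in 7.81%, 5.26%, 7.13% and 4.75% of the first 4 sets of windows in the same order, and in 6 of the 50. The share of higher genes thus exceeded that of genes above the floor but not that of all windows. GAAA and GAAA with any 2 bases between them, the core of the interferon-stimulated response element, stood in 3.44%, 3.13%, 5.16% and 2.94%, and in 2 of the 50. The cyclic AMP response element TGACGTCA was in 1.79%, 2.99%, 2.95% and 2.71%, and in 1 of the 50. GTAAACA, the FoxO element, was in 3.65%, 2.71%, 3.19% and 3.62%, and in 1 of the 50, so the share of lower genes was that of all windows. CACGTG, the E-box of lysosomal genes, was in 7.15%, 10.0%, 9.34% and 12.4%, and in 7 of the 50. CACGCG, a site known for Hes and Hey repressors, was in 9.27% of all windows, 16.8% of those of genes above the floor, 57 of the 407 of higher genes, 17.0% of those of lower genes and 4 of the 50. Windows of genes that share a start region overlap, so they are not independent. The 5 windows with the NF-kB letters among the 50 are of Cxcl1, Cxcl2, Cxcl3, Il6 and Cxcl10. The first 3 of these are neighbouring paralogues with the same letters. Among the higher genes, Myadm and Nfkb2 each count with 2 windows, those of Myadm for the same site. The windows cover 305 of the higher and 316 of the lower genes, and a match is a run of letters, not a measured binding site.

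**Figure D2:**
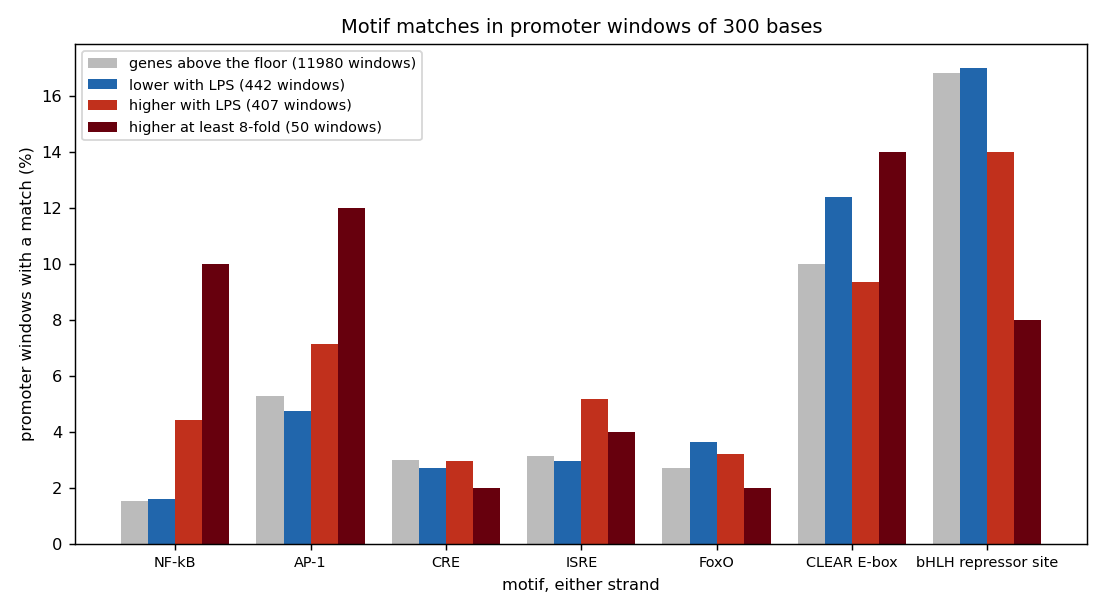
Share of promoter windows of 300 bases (y axis, %) that held each motif (x axis) on either strand, for genes above the floor (grey), lower with LPS (blue), higher with LPS (red) and at least 8-fold higher (dark red). For the NF-kB letters the bars climb from 1.51% to 4.42% and 10.0%, while the blue bar stands at 1.58%, beside the grey one. The 10.0% is 5 of 50 windows, among them those of the neighbouring paralogues Cxcl1, Cxcl2 and Cxcl3.

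Below, each functional list is given by the number of its members that were higher or lower out of those above the floor on a WT array, and by its median log2 difference after subtracting the median of all genes, which was -0.09. That median depended on how the arrays were scaled (0.12 with equal array medians, -0.02 with quantile normalization and 0.01 with cyclic loess), and this is why list medians are given relative to it. A call is termed scaling-steady if it also passed 2-fold under those 3 other scalings. This held for 379 of the 386 higher genes and for 186 of the 392 lower genes. Over all genes 3.36% were higher and 3.41% lower, and the counts of each list are to be read beside these shares. At such shares a short list would often hold no call in a given direction.

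**Figure D3:**
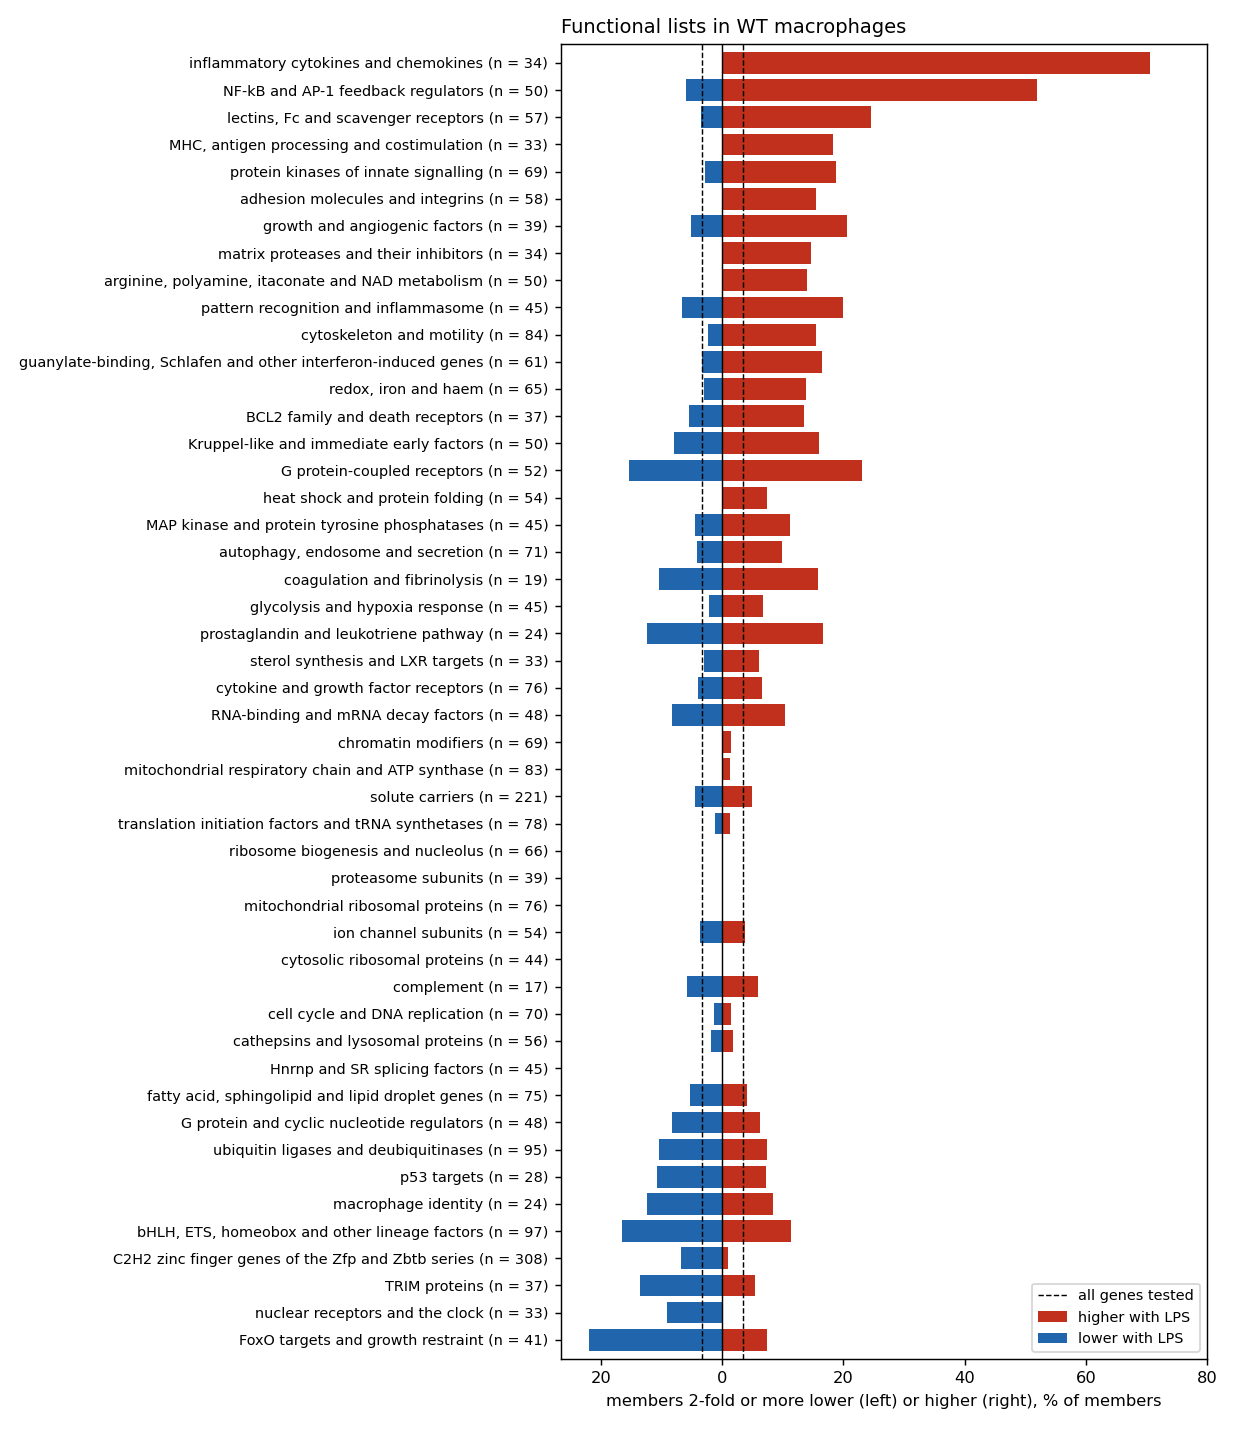
Share of members of the larger functional lists (x axis, % of members above the floor, n beside each name) that were at least 2-fold lower (blue, left) or higher (red, right) with LPS. Dashed lines mark the shares over all genes, 3.41% and 3.36%; the cytokine and feedback regulator lists extend furthest to the right, and the FoxO, nuclear receptor, TRIM and zinc finger lists lie at the bottom, with longer blue than red bars.

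G protein-coupled receptors, through which macrophages sense lipids, metabolites and chemokines, had calls in both directions. Of 52 receptors 12 were higher and 8 lower, with a relative median of 0.14. Gpr84, a receptor for medium-chain fatty acids, read 165 units untreated and 7052 with LPS, a 42.6-fold difference. Hcar2, the niacin and ketone body receptor, went from 3.97, under the floor, to 677 units, which is at least 12.8-fold, and Fpr2, a formyl peptide receptor, from 39.7 to 572, at least 10.8-fold. Each of these was dim in resting cells and clearly measurable with LPS. Ccrl2, an atypical receptor that presents chemerin, went from 450 to 3654 (8.12-fold) and Lpar1, a lysophosphatidic acid receptor, from 145 to 1020 (7.04-fold). In the opposite direction Gpr183, the oxysterol-guided migration receptor, went from 697 to 187 units, 3.72-fold lower, and Ccr2, the monocyte receptor for Ccl2, from 807 to 258, 3.13-fold lower. Lpar6 was 2.99-fold lower, so that of these lysophosphatidic acid receptors 1 was higher and the other lower. Cnr2, the immune cannabinoid receptor, was 3.17-fold lower, and the orphan receptors Gpr160 (326 and 60.8 units) and Gpr146 (770 and 226) were 5.35-fold and 3.40-fold lower. All these lower calls were scaling-steady, unlike that of Ptger3 (2.08-fold).

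The gene for an enzyme that makes the precursor of the Gpr183 ligand went the other way. Ch25h, cholesterol 25-hydroxylase, read 92.0 units untreated and 1703 with LPS, 18.5-fold higher. Of the 24 genes of the prostaglandin and leukotriene pathway 4 were higher and 3 lower. Ptgs2, the inducible cyclooxygenase, went from 47.8 units to 6406, at least 121-fold, and Ptges, the prostaglandin E synthase, from 49.0 to 399, at least 7.54-fold. Hpgd, which degrades prostaglandins, was 2.98-fold lower, at 2806 units untreated and 941 with LPS. Of the receptors, Ptger4 and Ptgir were 2.51-fold and 2.46-fold higher, Ptger3 was 2.08-fold lower and Ptger2, with a log2 difference of -0.02, was not called. The synthesis genes Hpgds, Tbxas1 and Ptges2 were not called, with log2 differences of -0.46, -0.26 and 0.08.

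Among regulators downstream of such receptors the largest differences were opposite in sign. Pde4b, a phosphodiesterase that removes cyclic AMP, went from 163 to 2458 units (15.1-fold). The 2 other Pde4b probe sets above the floor on both WT arrays read 2.86 and 4.23 on the log2 scale. Rgs2, which shortens G protein signals, went from 6554 to 1044 units, 6.28-fold lower and the furthest lower of all genes above the floor on both WT arrays. Rasgrp3, an activator of Ras, was 3.59-fold lower. Of the 48 genes of this list 3 were higher and 4 lower, with a relative median of 0.05.

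Kinases and phosphatases of innate signalling leaned upward. Of 69 kinase genes 13 were higher and 2 lower (relative median 0.40), and of 45 phosphatase genes 5 were higher and 2 lower (0.31). Ikbke, the inducible kinase of interferon regulatory factors, went from 671 to 3570 units (5.32-fold), and Pim1 and Jak2, of cytokine signalling, were 3.83-fold and 3.05-fold higher. The higher kinase genes included Map3k8, which links NF-kB to the ERK pathway (2.50-fold), the p38 target Mapkapk2 (2.71-fold) and the inhibitory Irak3 (2.73-fold), and also Ak4, an adenylate kinase and not a protein kinase. Lower were Map3k1 (663 and 214 units, 3.10-fold) and Mertk, the receptor kinase for uptake of dying cells (1425 and 440 units, 3.24-fold). Phosphatases that act on MAP kinases went both ways: Dusp2, Dusp4 and Dusp16 were 6.72-fold, 6.12-fold and 4.89-fold higher, and Dusp6, which acts on ERK, was 2.56-fold lower.

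Transcription factor genes were called in both directions, also within families. Ets2, an ETS factor downstream of Ras and MAP kinases, read 243 units untreated and 6389 with LPS, a 26.3-fold difference. Another Ets2 probe set read 3.22 on the log2 scale. By contrast, the related genes Ets1 and Fli1 were 2.26-fold and 2.14-fold lower, calls that were not scaling-steady. Mycl, a Myc family gene, went from 2.38 units to 552, at least 10.4-fold, and Spic, an ETS factor of iron-recycling macrophages, from 4.30 to 268, at least 5.06-fold. The microphthalmia family members Tfec (4.20-fold) and Mitf (2.30-fold) were both higher, as were Prdm1 (3.75-fold) and Rbpj, the DNA-binding partner of Notch (3.20-fold). Within the list of 97 such lineage factors 11 were higher and 16 lower, of which 8 were scaling-steady, and the relative median was -0.16. Sox4 gave the furthest lower value on the WT arrays, from 711 units to 27.7, at least 13.4-fold. Hhex, a haematopoietic homeobox gene (2210 and 776 units), Tsc22d3, a glucocorticoid-induced inhibitor of NF-kB also called Gilz (2309 and 739), Nfatc1 (1141 and 390) and Smad7 (664 and 232) were 2.85-fold to 3.13-fold lower.

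Of 50 immediate early and Kruppel-like factors 8 were higher and 4 lower. Their relative median was 0.22, and it was 0.13 with quantile normalization and 0.10 with cyclic loess. Klf7 went from 188 to 1129 units (6.01-fold), Egr2 from 245 to 1241 (5.06-fold) and Junb from 1501 to 6927 (4.61-fold), and Maff went from under the floor to 331 units, at least 6.25-fold. Klf4 went from 3227 to 921 units, 3.50-fold lower, while another of its probe sets read -0.94 on the log2 scale, short of 2-fold. In the C/EBP family Cebpd was 4.05-fold higher (1230 and 4982 units) and Cebpa, a factor of myeloid differentiation, 2.54-fold lower (3772 and 1486). Maf, a factor of mature resident macrophages, was 2.59-fold lower.

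None of 33 nuclear receptor and clock genes was higher and 3 were lower (9.09%), all scaling-steady, with a relative median of -0.35. A list of this length would often hold no higher gene at the 3.36% of all genes. The clock output gene Dbp went from 518 to 156 units (3.32-fold lower), the mitochondrial coactivator Ppargc1b from 247 to 80.9 (3.05-fold lower) and Rxra, the shared partner of many nuclear receptors, from 543 to 200 (2.71-fold lower). Of 69 chromatin modifier genes 1 was higher, or 1.45%, and 0 lower, beside 3.36% and 3.41% of all genes. The higher gene was Kdm6b, the H3K27 demethylase Jmjd3, with 89.3 units untreated and 501 with LPS, 5.61-fold higher.

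The genes that restrain growth and stand under FoxO control were the functional list with the largest share of lower members, 22.0% beside 3.41% of all genes. The lists were chosen with earlier results of these data known, so this order is only a description. Of 41 genes 9 were lower and 3 higher, and 6 of the lower calls were scaling-steady. Arrdc3, which draws receptors into endosomes, went from 938 to 189 units (4.97-fold lower), Sesn1, a sestrin that restrains mTORC1, from 4678 to 982 (4.76-fold lower) and Fbxo32, the ubiquitin ligase subunit atrogin-1, from 442 to 103 (4.29-fold lower). The gene of the factor itself, Foxo3, was 2.38-fold lower, from 1545 to 649 units, and Tob1, an antiproliferative gene, 2.97-fold lower. The relative median of the list was -0.08, and it was -0.19 with quantile normalization and -0.21 with cyclic loess. Rictor, a part of mTORC2, was 2.07-fold higher and Gadd45b 3.27-fold higher. Bmf, a BH3-only death gene outside this list, went from 811 to 234 units (3.47-fold lower).

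The only gene among the 30 furthest lower, of the 20 that had a window, that held the FoxO letters was Sesn1, in 1 of its 2 windows. The match reads on the opposite strand, TGTTTAC, and begins at 22, after the gene's start.
Sesn1, chr10:41810324-41810623, plus strand: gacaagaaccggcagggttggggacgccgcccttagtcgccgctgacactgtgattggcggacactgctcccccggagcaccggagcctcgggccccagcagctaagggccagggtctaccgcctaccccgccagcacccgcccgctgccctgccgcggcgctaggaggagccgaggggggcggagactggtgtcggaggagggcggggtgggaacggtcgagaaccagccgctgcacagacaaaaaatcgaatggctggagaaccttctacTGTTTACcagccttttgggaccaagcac

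Of 37 genes of the BCL2 family and death receptors 5 were higher, 2 were lower, Bmf and Bbc3 (2.16-fold, not scaling-steady), and the others were not called. Fas went from 118 to 1249 units (10.6-fold). Cflar, the inhibitor of death receptor caspases, was 5.30-fold higher (944 and 5000 units), and Birc3, an inhibitor of apoptosis, 4.94-fold higher. Casp4, the receptor for LPS in the cytosol, was 4.40-fold higher.

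Genes that act on mRNA and protein turnover moved both ways. Zc3h12c, a relative of the ribonuclease regnase-1, went from 202 to 2418 units, and regnase-1 itself, Zc3h12a, from 252 to 928 (3.69-fold). The AU-rich element binding protein gene Zfp36 was 2.15-fold higher and its paralogue Zfp36l1 2.92-fold lower, and the polyadenylation regulator Cpeb2 was 3.21-fold lower. In total 5 of 48 genes of this list were higher and 4 lower. Of 95 ubiquitin ligase and deubiquitinase genes 7 were higher and 10 lower, and 4 of the lower calls were scaling-steady. Rnf144b went from 3439 to 629 units (5.47-fold lower), Enc1, an actin-binding adaptor of a ubiquitin ligase, from 3195 to 596 (5.36-fold lower), and Usp2 from 872 to 293 (2.98-fold lower). Trim13 and Rnf19b, by contrast, were 5.33-fold and 4.81-fold higher.

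Zinc finger genes of the Zfp and Zbtb series, most of them poorly characterised DNA-binding repressors, had mainly lower calls. Of 308 genes 3 were higher, or 0.974%, and 21 were lower, or 6.82%, and 15 of the lower calls were scaling-steady. The relative median was -0.22, and it was -0.12 with quantile normalization and -0.11 with cyclic loess. Lower members included Zfp788 (255 and 67.8 units, 3.76-fold), Zfp395 (230 and 64.1 units, 3.59-fold), Zfp398 (2.89-fold) and Zfp958 (2.69-fold). These are dim probe sets, in a range of intensity where more genes were called lower than higher. Of all 2267 genes with a mean from the floor to 200 units, 148 were lower and 79 higher. Whether the zinc finger share differs from that of other genes of like brightness was not tested. The series also holds Zfp36 and Zfp36l1, which bind RNA. Of 37 TRIM genes 2 were higher and 5 lower (relative median -0.24). Only 2 of the lower calls were scaling-steady, those of the chromosome 11 neighbours Trim47 (2.81-fold) and Trim65 (2.45-fold).

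Most calls among cytoskeleton and adhesion genes were upward. Of 84 cytoskeleton and motility genes 13 were higher and 2 lower (relative median 0.19), and of 58 adhesion genes 9 were higher and 0 lower (0.21). With quantile normalization and cyclic loess these medians were 0.05 and 0.04 for the cytoskeleton list and 0.08 in both cases for the adhesion list. Cdc42ep2, an effector of the GTPase Cdc42, went from 37.9 units, under the floor, to 1950, at least 36.8-fold. Marcksl1, which binds actin at the plasma membrane, went from 834 to 18391 units (22.1-fold), and the syndecan Sdc4 from 1298 to 10010 (7.71-fold). Both Cdc42ep2 and Marcksl1 belong to the 22 genes that were at least 16-fold higher, as read from the brightest probe set of each gene. The 3 other Marcksl1 probe sets above the floor on both WT arrays read from 2.01 to 4.40 on the log2 scale. Vasp (3.92-fold), the filopodial motor gene Myo10 (3.80-fold), the formin gene Fmnl2 (2.88-fold) and Plek, pleckstrin (3.65-fold), were higher as well.

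Icam1, the ligand of leukocyte integrins, read 1483 units untreated and 15487 with LPS, a 10.4-fold difference. Of the integrins, the fibronectin receptor chain Itga5 was 3.00-fold higher, Itga4 2.38-fold and Itgal 2.16-fold, and Itgb8, which activates latent TGF-beta, went from under the floor to 262 units, at least 4.94-fold. Itgam, by comparison, read 2250 and 1840 units and was not called. Vcam1 was at least 3.02-fold higher, but another of its probe sets went the other way.

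Lectin, Fc and scavenger receptor genes, which take up microbes and debris or signal on contact with them, had 14 of 57 members higher and 2 lower. Clec4e, the Mincle receptor for mycobacterial glycolipid, was bright in resting cells at 2304 units and reached 29069 with LPS (12.6-fold). Clec5a was 4.23-fold higher, the oxidised lipoprotein receptor Olr1 at least 5.39-fold, the scavenger receptors Marco at least 2.99-fold and Msr1 2.15-fold, and the inhibitory Fc receptor Fcgr2b 3.14-fold. Trem1, Trem3 and Treml4, neighbours on chromosome 17, were 3.09-fold, 2.23-fold and 3.42-fold higher. Colec12, a scavenger collectin, went the other way, from 352 to 102 units (3.47-fold lower). The median of the list lay 0.12 above that of all genes, but was level with it under quantile normalization and loess.

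Membrane traffic genes included some of the larger changes. Ehd1, which drives recycling from endosomes, went from 732 to 7279 units (9.95-fold) and the phagosomal GTPase gene Rab20 from 92.6 to 910 (9.82-fold). Stx11, a syntaxin of secretory cells, was 4.05-fold higher. Of 71 genes 7 were higher and 3 lower.

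Of 34 matrix proteases and inhibitors 5 were higher (14.7%) and 0 lower, with a relative median of 0.31. A list of this length would often hold no lower gene at the 3.41% of all genes. Mmp14, the membrane-bound collagenase, went from 164 to 2902 units (17.6-fold) and the collagenase gene Mmp13 from 1227 to 3768 (3.07-fold). The serine protease inhibitor gene Spint2 was 5.27-fold higher, and Serpinb2, an inhibitor of plasminogen activators, at least 3.30-fold. On the coagulation side the anticoagulant receptor gene Thbd, thrombomodulin, went from 534 to 97.4 units, 5.48-fold lower, while F10, which encodes factor X, was 2.86-fold higher (172 and 493 units) and the urokinase receptor gene Plaur 2.40-fold higher. Over the 19 genes of coagulation and fibrinolysis 3 were higher and 2 lower.

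Growth and angiogenic factor genes gave 8 higher and 2 lower of 39. The Notch ligand gene Jag1 went from 452 to 4890 units (10.8-fold). The 2 other Jag1 probe sets above the floor on both WT arrays read 1.54 and 3.19 on the log2 scale. Vegfc, the lymphatic growth factor, went from 75.8 to 529 (6.98-fold), and Csf1, the growth factor of macrophages themselves, from 204 to 1494 (7.32-fold). Angptl4, a lipoprotein lipase inhibitor and target of PPAR receptors, was 4.60-fold lower, at 289 and 62.9 units. Among receptors for such factors 5 of 76 were higher (6.58%) and 3 lower (3.95%), beside 3.36% and 3.41% of all genes. The Wnt receptor gene Fzd1 was 4.84-fold higher and Il6ra 2.95-fold lower. Of 33 genes of antigen presentation and costimulation 6 were higher and 0 lower, and all 6 act in contact with T cells: Cd40 (91.0 and 2040 units, 22.4-fold), Tnfsf9 (20.7-fold), Cd83 (9.13-fold), Icosl (7.19-fold), Cd274 (2.70-fold) and Tnfsf4 (2.59-fold).

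**Figure D4:**
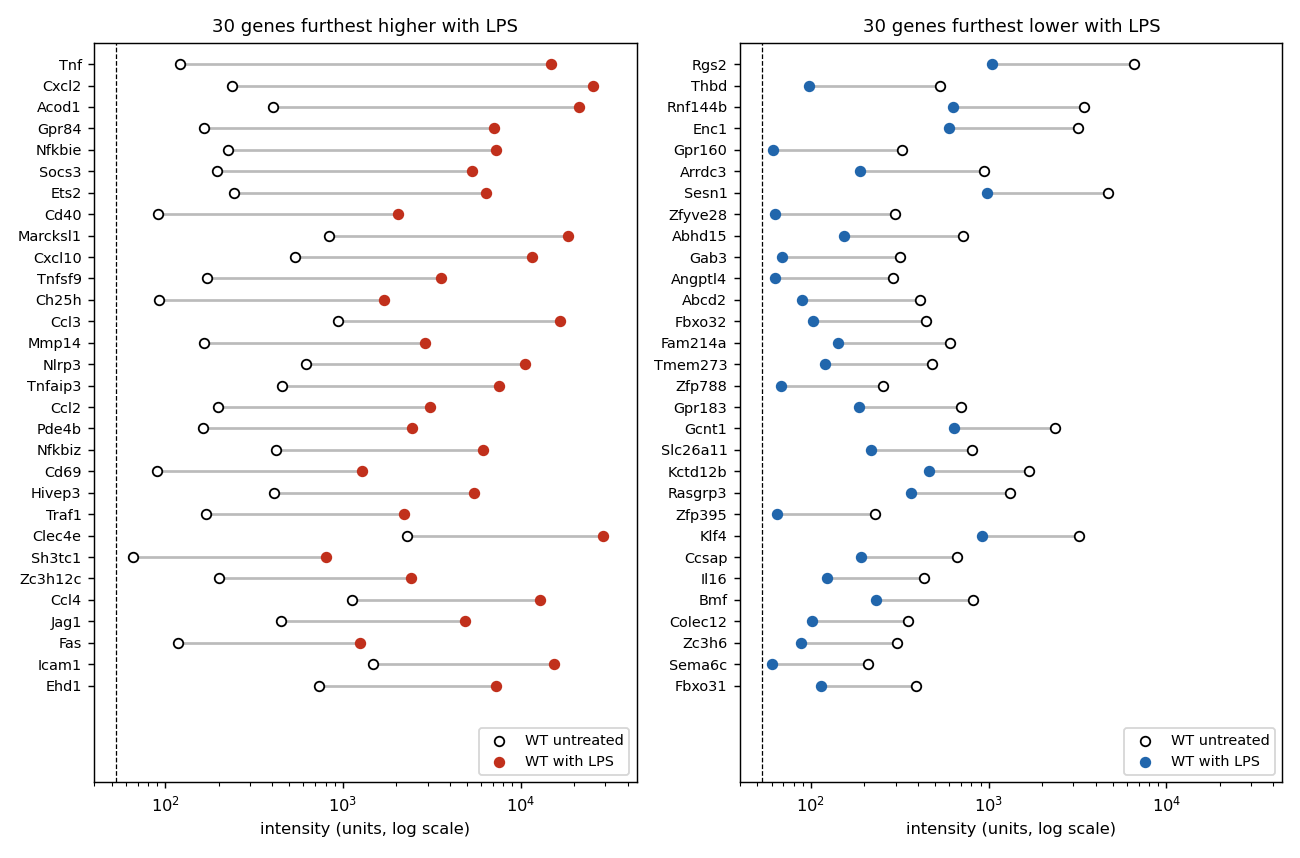
Intensity (x axis, units, log scale) untreated (open circles) and with LPS (filled circles) of the 30 genes furthest higher (left, red) and furthest lower (right, blue) among genes above the floor on both WT arrays; the dashed line is the floor. Gaps on the left span from Tnf, 122 to 14788 units, to Ehd1, 732 to 7279 units, and those on the right are shorter, led by Rgs2, 6554 to 1044 units.

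Metabolic and transport lists differed in their share of calls. In amino acid and redox metabolism Slc7a11, the cystine importer, went from 133 to 1101 units (8.29-fold), Sod2, the mitochondrial superoxide dismutase, from 3269 to 17586 (5.38-fold), Gch1, which starts tetrahydrobiopterin synthesis, from 1064 to 4399 (4.13-fold) and the mitochondrial arginase gene Arg2 from 174 to 643 (3.70-fold). In all 9 of 65 redox, iron and haem genes were higher and 2 lower, and 7 of 50 arginine, polyamine, itaconate and NAD genes were higher and 0 lower. Several metal carriers were higher: Slc39a14 for zinc and iron (4.57-fold), Slc31a2 for copper (5.22-fold), Slc11a2 for iron (3.07-fold) and the mitochondrial iron importer Slc25a37 (3.22-fold). Over all 221 solute carriers 11 were higher and 10 lower, near the shares of all genes, with a relative median of -0.02 whose sign depended on the scaling. Lower carriers included Slc26a11, an anion exchanger (801 and 218 units, 3.67-fold), and the lysosomal amino acid carrier Slc36a1 (2.39-fold).

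Lipid genes gave 3 higher and 4 lower of 75, or 4.0% and 5.33%, near the 3.36% and 3.41% of all genes. Plpp3, a phosphatase of lysophosphatidic acid, was 4.92-fold higher (668 and 3285 units), the cytosolic thioesterase gene Acot1 (366 and 114 units) was 3.20-fold lower, and Lpin1, of triglyceride synthesis, was 2.43-fold lower. Abcd2, a peroxisomal fatty acid transporter gene outside the list, was 4.60-fold lower (410 and 89.2 units). The store-operated calcium channel gene Orai2 was 4.88-fold higher, 1 of 2 higher genes among 54 ion channel subunits, of which 2 were lower. Those counts are 3.7% in each direction, again near the shares of all genes.

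Several classes had next to no member past 2-fold, beside 3.36% higher and 3.41% lower over all genes. At those shares a short list, such as the histone genes, would often hold no call. Neither direction was called among 44 cytosolic ribosomal proteins, 76 mitochondrial ribosomal proteins, 66 ribosome biogenesis genes, 39 proteasome subunits, 45 splicing factors or 9 histone genes. Values in these classes stayed within -0.86 for Mrpl33 and 0.96 for the proteasome assembly gene Psmd10 on the log2 scale. Ribosome biogenesis genes nonetheless had a relative median of 0.25, led by Rcl1 (0.88) and Rrs1 (0.84), and that relative median lay between 0.25 and 0.27 over the scalings. The cytosolic ribosomal proteins had 0.33, which dropped to 0.00 with quantile normalization. Of 83 respiratory chain genes 1 was higher, Ndufb1 at 2.03-fold, and of 56 lysosomal proteins 1 was higher, the channel gene Mcoln2 (2.28-fold), and 1 lower. Among 70 cell cycle genes 1 was higher, Ccnd2 (2.45-fold), and 1 lower, Cdc6 (2.09-fold, not scaling-steady).

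Some genes with large differences belonged to none of the lists. Hivep3, a zinc finger protein that binds kappaB-like DNA, went from 408 to 5506 units (13.5-fold) and Sh3tc1 from 65.6 to 804 (12.2-fold). The 2 other Hivep3 probe sets above the floor on both WT arrays read 0.32 and 2.40 on the log2 scale. Lower were Zfyve28, a regulator of epidermal growth factor receptor traffic (298 and 62.7 units, 4.76-fold), Abhd15 (714 and 153 units, 4.66-fold), Gab3, a docking protein downstream of the Csf1 receptor (317 and 68.7 units, 4.61-fold), Gcnt1, which branches O-glycans (2350 and 634 units, 3.71-fold), and Il16 (430 and 124 units, 3.48-fold). In total 152 of the 386 higher and 255 of the 392 lower genes were in no list, so the lower genes were the less well covered by these lists.

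Calls lay next to each other along the chromosomes. Of 385 higher genes with a place in the RefSeq order, 70 adjoined another higher gene, which is 18.2%, whereas 750 of all 11469 genes did, which is 6.54%. For the lower genes it was 52 of 391, or 13.3%, against 766 genes, or 6.68%. Higher runs of 3 neighbours were the chemokine genes Cxcl3, Cxcl1 and Cxcl2 on chromosome 5, the chemokine genes Ccl22, Cx3cl1 and Ccl17 on chromosome 8, the receptor genes Trem1, Trem3 and Treml4 on chromosome 17, and Col4a2, Rab20 and E230013L22Rik on chromosome 8. Fas and Ch25h, 10.6-fold and 18.5-fold higher, are neighbours without being related in sequence, and so are the lower genes Sesn1, Armc2 (2.41-fold) and Foxo3 on chromosome 10. Neighbours can be paralogues with similar probes, and the part of this in the counts was not tested.

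The DKO pair shares no array with the WT pair and gives a second reading of each gene, in cells of another genotype. Of 384 genes higher in WT and above the floor in DKO, 338 were also higher there, which is 87.6% of the 386, against 4.66% of all genes tested in DKO. Of 390 lower genes, 221 were also lower there, or 56.4% of the 392, against 4.77%. Among scaling-steady calls the shares were 87.3% of 379 for higher genes and 71.5% of 186 for lower genes. Gpr84 was 6.90 higher on the log2 scale in DKO cells against 5.41 in WT, Marcksl1 5.11 against 4.46 and Cdc42ep2 5.31 against 5.20. Klf4 read -3.00 in DKO against -1.81 in WT, Rnf144b -3.63 against -2.45 and Fbxo32 -2.97 against -2.10. Other genes differed less in DKO than in WT, among them Sh3tc1 (1.71 against 3.61), Sesn1 (-1.84 against -2.25) and Bmf (-1.28 against -1.80). All of these kept their direction, and whether the sizes differ between genotypes cannot be tested with 1 array a group. Among zinc finger genes 18 of 301 were lower and 3 higher in DKO, but Zfp788 read only -0.57 there and Zfp935 -0.42.

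**Figure D5:**
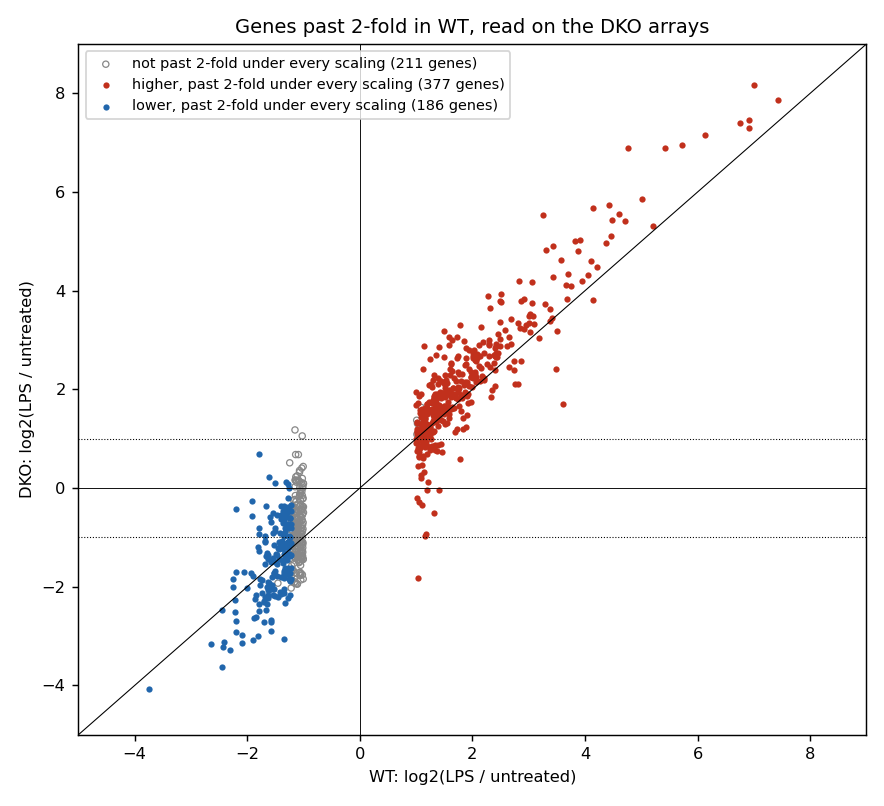
Log2 difference with LPS in WT (x axis) against that in DKO cells (y axis) for genes past 2-fold in WT and above the floor in DKO; filled points were past 2-fold under every scaling, open grey points were not, dotted lines mark 2-fold in DKO and the diagonal marks equal differences. Higher genes follow the diagonal up to the cytokine genes, and 338 of them pass 2-fold in DKO as well; lower genes spread more widely, and 221 pass.

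Values close to the threshold show what a call rests on. Just inside were Hspa1a (354 and 710 units) and Cdc42bpg (263 and 527), both 2.00-fold higher, and Aldh6a1 (991 and 495) and Bcl2l14 (123 and 61.5), both 2.00-fold lower. Just outside were Polr3d (272 and 544) and Cdc42ep4 (767 and 1531) upward, and Tmem158 (814 and 407) and Sgsh (1008 and 505) downward. For genes with another probe set above the floor the reading could be checked within the array: this was so for 159 higher genes, of which 87 had every other probe set past 2-fold in the same direction and 10 had one of opposite sign, and for 148 lower genes, of which 46 and 18 did.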

How the data were processed

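RNA of 4 macrophage samples, 1 per group, was amplified, labelled with biotin and hybridised to Affymetrix mouse arrays of 45101 probe sets, per the labels. The deposited values are linear intensities, and they show that the authors had scaled every array to a mean of 500.003 (the outer 2% on each side trimmed). Their software was not given in the sources used here. Scaling of this kind leaves dim signals free to shift.

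Leaving out 64 controls, 34945 probe sets named 1 gene in the platform annotation, 932 several and 9160 none. Symbols of 34741 probe sets were updated with RefSeq GRCm38.p6, which also gave promoters and gene order, and 204 were kept. Each gene was read from whichever of its probe sets was brightest on average. Values under 52.9 units were set to it, and the log2 of LPS over untreated was taken from the deposited intensities. The members and the 58 gene lists were chosen with earlier results of these data known.

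Genes were named by rule: the 30 furthest in each direction above the floor on both WT arrays, the 10 largest bounds, list members past 2-fold or the largest values of a list with none, the 3 markers, and those nearest 2-fold. The 30 and the bounds left out symbols with no description and genes with another probe set of opposite sign. Genes compared with these in passing were chosen after their values were seen.

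Arrays were also rescaled by their medians, by quantiles and by cyclic loess. The floor was moved to the 35th or the 65th percentile or replaced by an offset of 16 units, probe sets of a gene were combined by their median, shared ones were dropped, and 1.5-fold or 3-fold served as threshold. Of the gene lists, 1 is not reported here. The scripts were tested on simulated data. Python 3.11.15, pandas 2.3.3, R 4.3.3 and limma 3.58.1 were used.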

Additional observations from a re-analysis of the deposited data

Results flagged for a closer look

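Of the genes called in WT cells, 3 had the opposite call in DKO cells, 1 of the 386 higher and 2 of the 392 lower genes. Over all genes tested in DKO, 4.66% were higher and 4.77% lower there. Whether the genotypes differ at these 3 genes was not tested, since each group was 1 array. Lipn, an epidermal lipase gene, read 72.9 units untreated and 150 with LPS in WT cells (1.04 on the log2 scale), and 188 and 48.7 in DKO cells. Rap1gap, an inhibitor of the GTPase Rap1, read 139 and 62.5 in WT cells (-1.15) and 61.1 and 138 in DKO cells. Both were dim, with 1 probe set each. Rnpc3, a protein of the minor spliceosome, read 581 and 286 in WT cells (-1.02) and 228 and 474 in DKO cells, and another of its probe sets read 0.28 on the log2 scale in WT cells. These genes were singled out after their values were seen.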

How the results depend on the processing

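The count of higher genes held within 1.5 times of 386 under every alternative but the thresholds: it was 796 at 1.5-fold and 186 at 3-fold. The count of lower genes was the less stable. Against 392 it was 194 with equal array medians, 255 with quantile normalization, 223 with cyclic loess, 791 with the floor at the 35th percentile, 225 with the floor at the 65th, 1481 at 1.5-fold and 65 at 3-fold. The other scalings also moved the split of calls: 520 higher and 194 lower with equal array medians, 428 and 255 with quantile normalization, and 447 and 223 with cyclic loess. Of 394 single genes followed through the alternatives other than the thresholds, 258 kept their call wherever they were still read. A gene that dropped out under an alternative, for instance below a raised floor, was not counted as a lost call. With probe sets of a gene combined by their median, Arhgap27 (0.15) and Slc8a1 (0.061) turned from lower to slightly above 0 on the log2 scale. The cause of these shifts was not tested. As deposited, the array median was 59.1 units for WT_UT, 50.9 for WT_LPS, 51.0 for DKO_UT and 50.8 for DKO_LPS. The share of probe sets above the floor was 52.0% on WT_UT, 49.3% on WT_LPS, 49.5% on DKO_UT and 49.2% on DKO_LPS. WT_UT enters every WT difference, and the part of its higher median in the lower calls was not tested. Signal over the floor limits genes read on 1 array alone, whose folds are bounds. No paired analysis was possible because each group was 1 array.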

Other observations

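Of 61 interferon-induced genes 10 were higher and 2 lower. Irf1 went from 1286 to 7073 units (5.50-fold) and Gbp2 from 1276 to 5308 (4.16-fold), with its chromosomal neighbour Gbp3 2.31-fold higher. Ifi204 was 2.18-fold lower, a call that was not scaling-steady. Of the heat shock and folding genes, 4 of 54 were higher and 0 lower, led by Hspa1b (898 and 5031 units, 5.60-fold), whose near-identical neighbour Hspa1a was 2.00-fold higher.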
